A study of Mus musculus with 18 samples.

Results

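The comparison described here sets dorsal root ganglia (DRG) taken during recovery against DRG taken at peak disease. Its 6 members are the 3 libraries labelled DRG recovery (PID42) and the 3 labelled DRG peak disease (PID21), of 18 libraries in the whole series, and they were chosen by their labels alone. The other libraries are DRG with no disease and sciatic nerve at the same 3 stages, again 3 in each group. Every group comes from mice of C57BL/6 background, and the ganglia are L3-L5. The labels name neither the means by which disease was induced nor any further allele or agent, the age of the mice or the meaning of PID. They also do not tell whether the 3 libraries of a group stem from 3 animals, so the p-values rest on the spread among libraries, which may be technical. RNA was sequenced in bulk, so fewer cells of a type and less RNA per cell cannot be told apart.

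A ganglion holds the cell bodies of the sensory neurons of a limb, each wrapped in satellite glia, beside myelinating Schwann cells, macrophages and vessels. When an axon is injured, its distant cell body is known to switch on a regeneration programme in which the transcription factor Atf3 comes early, followed by growth, cytoskeletal and neuropeptide genes. Class II molecules of the major histocompatibility complex (MHC), which are carried by macrophages and other antigen presenting cells, display peptides to helper T cells.

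The libraries held 18856611, 22531371 and 21742266 counts at recovery and 14887230, 16129889 and 15014866 counts at peak. Genes that collect ribosomal RNA reads took 3.62%, 4.84% and 3.94% of counts at recovery and 7.58%, 5.61% and 14% at peak, so the groups do not overlap (exact permutation test, two-sided, p = 0.1, the smallest that 3 against 3 libraries allow). Leaving those genes out moved the calls to 6 higher and 18 lower. The sensory neuron markers fixed for the tissue, among them Scn10a, Calca, Prph and Isl1, were present in all 6 libraries, as was Fabp7 of satellite glia. Recovery replicate 1 stood apart from its group. On the first principal component, which held 37.5% of the variance over the 9 DRG libraries, it lay at 9.70, recovery replicates 2 and 3 at -19.6 and -16.1, and the library nearest to it was DRG no disease replicate 1. Its summed level of 8 red blood cell genes was 82.0 CPM (counts scaled to library size by the trimmed mean of M-values), against 626 and 424 CPM in recovery replicates 2 and 3 and 161, 142 and 391 CPM at peak. Its summed level of 15 granulocyte and mast cell genes was 68.3 CPM, against 529 and 455 CPM in the other recovery libraries and 164, 101 and 393 CPM at peak. The counts over all genes, and those of lists where stated, are therefore given with and without it. Other list counts rest on all DRG libraries.

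In recovery DRG set against peak DRG, 23 genes passed the test. Among them 7 injury effector genes and Atf3 fell and 2 class II antigen presentation genes rose, while most of the 23 belonged to neither group. Of 16482 genes tested, 5 were higher at recovery (0.0303%) and 18 were lower (0.109%), called at an adjusted p under 0.05 by the quasi-likelihood test of edgeR, with p-values adjusted by Benjamini and Hochberg's method. The median log2 fold change over all genes tested was 0.02, and 1158 genes were higher (7.03%) and 1214 lower (7.37%) at unadjusted p under 0.05. DESeq2 called 101 higher (0.613%) and 191 lower (1.16%), and limma-voom called 1 (0.00607%) and 11 (0.0667%). Without recovery replicate 1 the edgeR test called 579 higher (3.47%) and 1175 lower (7.05%), all 23 genes among them. Without recovery replicate 2 it called 0 and 0, with 699 higher and 699 lower at an unadjusted p below 0.05, and without recovery replicate 3 it called 0 and 2. Without peak replicates 1, 2 and 3 it called 1 and 30, 0 and 1, and 0 and 2. The 23 genes kept their direction in each of the 14 alternative analyses, and their recovery and peak libraries do not overlap. Groups that do not overlap were common, however, with 1403 genes higher (8.51%) and 1225 lower (7.43%). The counts of list members below are to be read beside these shares of all genes. All 23 genes also have a q-value under 0.05 and the same direction in the authors' deposited table, which holds 43 higher and 98 lower genes.

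**Figure D1:**
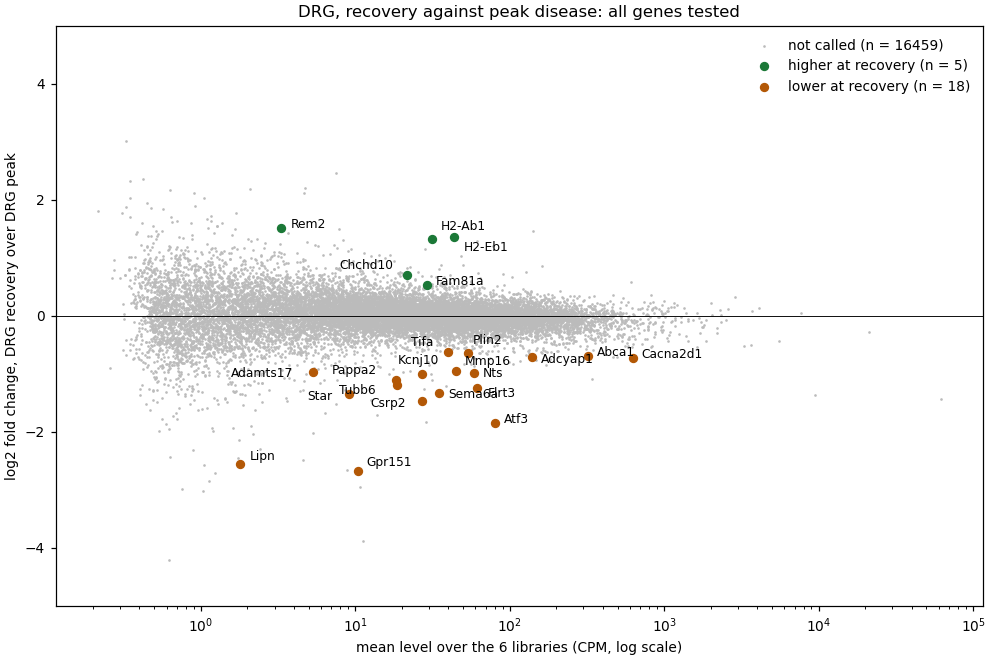
Log2 fold change of DRG recovery over DRG peak (vertical axis) against the mean level over the 6 libraries in CPM (horizontal axis, log scale) for the 16482 genes tested. The 18 genes lower at recovery and the 5 higher lie on the edges of a cloud centred near 0.

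Of the lists described here, the injury effectors had the most members that fell. The list holds genes that sensory neurons are known to induce after axon damage. Of 25 members tested, 7 were lower and 0 higher at recovery, and their median log2 fold change was -0.95. By other measures 18 members were lower at unadjusted p under 0.05, 17 by DESeq2 and 3 by limma-voom, and none was higher in any of these. In 17 members all recovery libraries lay below all peak libraries. Of all genes 7.43% did so, and 7.37% were lower at unadjusted p under 0.05. Without recovery replicate 1 the lower members numbered 18 and the median was -0.96. The list was drawn up with earlier results of these data known.

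Atf3 (ENSMUSG00000026628, GRCm38 chromosome 1, 191170296 to 191218039), the transcription factor that marks injured sensory neurons, was at 36.1, 34.1 and 35.1 CPM at recovery and at 77.2, 156 and 144 CPM at peak. The recovery libraries lie close together and peak replicate 1 is the lowest of its group. Atf3 fell by 1.84 ± 0.23 (log2 fold change ± SE, edgeR adjusted p = 0.0286). The no disease libraries held 7.66 to 11.4 CPM, so Atf3 at recovery was still 1.92 ± 0.25 above them (adjusted p = 0.0116 in the same edgeR fit). On mean CPM, 22.1% of the rise at peak was left. Of the 15 injury transcription factors tested 1, Atf3, was lower and 0 were higher, and the list median was -0.16. Without recovery replicate 1 edgeR called 5 lower and 0 higher, with a median of -0.27, beside 7.05% of all genes lower. Sox11, a developmental factor that injured neurons re-express, averaged 23.4 ± 3.36 CPM at recovery and 53.7 ± 18.1 CPM at peak (SD, n = 3 each), and Jun, the AP-1 subunit, averaged 55.2 ± 8.03 and 66.9 ± 20.3 CPM. Their edgeR adjusted p-values were 0.0735 for Sox11 and 0.539 for Jun.

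Gpr151 (ENSMUSG00000042816), an orphan receptor that injured sensory neurons express, had the steepest fall of the genes that passed. It was at 2.87, 2.63 and 2.92 CPM at recovery and at 9.24, 23.1 and 21.2 CPM at peak. That is a fall by 2.67 ± 0.31 (edgeR adjusted p = 0.0286), to a level whose difference from no disease, 0.86 ± 0.35, did not pass (edgeR adjusted p = 0.189). Nts (ENSMUSG00000019890, chromosome 10, 102481756 to 102490486), which encodes the peptide neurotensin, was at 37.8, 39.5 and 40.5 CPM at recovery and at 62.1, 78.7 and 91.5 CPM at peak (-0.98 ± 0.13, edgeR adjusted p = 0.0403). Of the 17 genes that fell and had risen at peak, Nts kept the largest share of its rise: against 8.95 to 11.6 CPM with no disease it was still 1.90 ± 0.15 higher at recovery (edgeR adjusted p = 0.00161), with 43% of the rise in mean CPM left. Star (ENSMUSG00000031574), which carries cholesterol into mitochondria, was at 6.55, 3.94 and 4.96 CPM at recovery and at 10.7, 13.9 and 14.5 CPM at peak (-1.35 ± 0.20, edgeR adjusted p = 0.0403), and 32% of its rise was left.

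Growth and adhesion members of the list fell as well. Flrt3 (ENSMUSG00000051379), a leucine-rich repeat adhesion protein of growing axons, was at 37.8, 32.2 and 39.1 CPM at recovery and at 59.9, 103 and 94.9 CPM at peak (-1.24 ± 0.17, edgeR adjusted p = 0.0403). Tubb6 (ENSMUSG00000001473), a beta tubulin, was at 11.1, 10.9 and 12.1 CPM at recovery and at 20.6, 30.02 and 27.3 CPM at peak (-1.19 ± 0.15, edgeR adjusted p = 0.0286). Mmp16 (ENSMUSG00000028226), a membrane-bound matrix metalloproteinase, was at 32.1, 31.0 and 28.7 CPM at recovery and at 44.9, 68.8 and 63.4 CPM at peak (-0.95 ± 0.14, edgeR adjusted p = 0.0403). In these 3 genes the share of the peak rise left at recovery was 19.3%, 16.2% and 4.86%, beside 7.72% for Gpr151, and none differed from no disease by the test (edgeR adjusted p = 0.0945 for Flrt3, 0.148 for Tubb6 and 0.805 for Mmp16). Other members of the list did not pass. Sprr1a, a small proline-rich protein that promotes axon growth, was at 3.38, 2.54 and 1.31 CPM at recovery and at 7.50, 21.4 and 16.6 CPM at peak (-2.66 ± 0.45, edgeR adjusted p = 0.0667). The neuropeptide genes Npy (-1.51 ± 0.42) and Gal (-0.79 ± 0.17) and the growth cone gene Gap43 (-0.30 ± 0.08) had edgeR adjusted p-values of 0.189, 0.103 and 0.165. Npy was the 1 of these 4 whose groups overlap, since peak replicate 1, at 4.82 CPM, lies below recovery replicate 1, at 5.12 CPM.

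**Figure D2:**
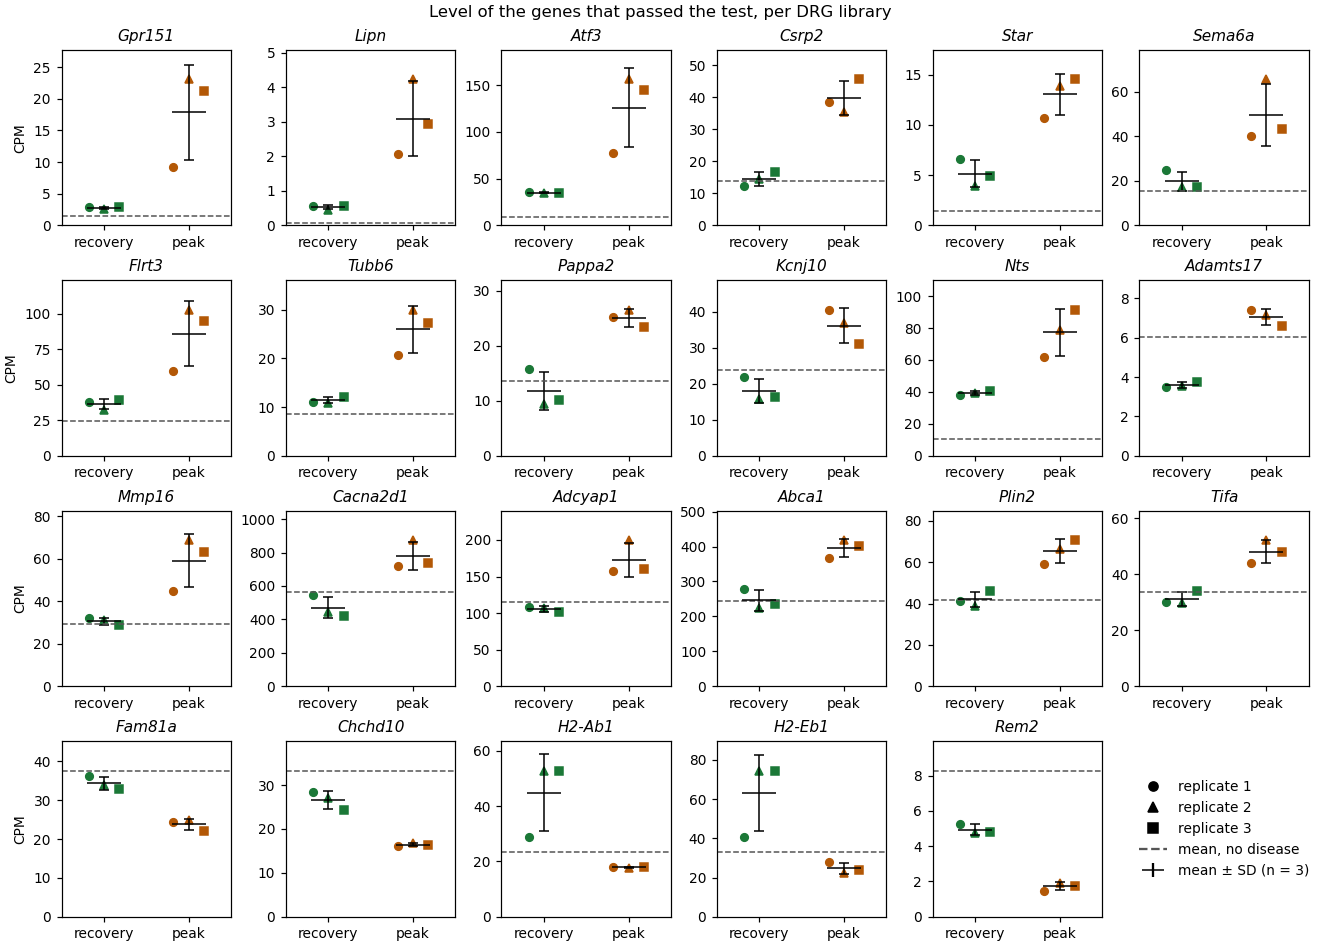
Level in CPM of each of the 23 genes that passed the test, with the 3 recovery libraries left of the 3 peak libraries, the mean ± SD (n = 3) in black and the mean of the no disease libraries as a dashed line. Peak replicate 1 is the lowest peak library for Atf3, Gpr151, Flrt3, Tubb6 and Nts, and recovery replicate 1 is the lowest recovery library for H2-Eb1 and H2-Ab1.

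Members of the AP-1 family, to which Jun and Fos belong and with which Atf3 can pair, bind the letters TGANTCA. The upstream sequences of the genes that passed were searched for these letters where a RefSeq entry existed. Shown are the genes with a match, Nts and Lipn, of which Lipn is not on the injury lists. Sprr1a, an injury effector that did not pass, was added by choice. The sequences show the match in capitals, 5′ to 3′ on the strand of the gene, from RefSeq on GRCm38.p6, starting 250 bases before the RefSeq start and ending before the GENCODE gene model begins. For Nts (chr10:102490487-102490668, minus strand) the match begins 207 bases before the start, for Lipn (chr19:34067108-34067357, plus strand) 148 bases, and for Sprr1a (chr3:92485896-92486131, minus strand) there are 2, at 146 and 116 bases.
Nts: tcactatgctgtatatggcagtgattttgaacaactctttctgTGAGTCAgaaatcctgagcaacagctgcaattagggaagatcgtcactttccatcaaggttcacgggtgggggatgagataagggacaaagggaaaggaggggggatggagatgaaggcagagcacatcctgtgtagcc
Lipn: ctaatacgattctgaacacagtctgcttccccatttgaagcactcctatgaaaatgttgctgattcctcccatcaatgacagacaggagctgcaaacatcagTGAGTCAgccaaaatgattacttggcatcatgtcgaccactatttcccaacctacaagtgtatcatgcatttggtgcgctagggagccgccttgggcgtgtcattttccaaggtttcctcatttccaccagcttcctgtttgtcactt
Sprr1a: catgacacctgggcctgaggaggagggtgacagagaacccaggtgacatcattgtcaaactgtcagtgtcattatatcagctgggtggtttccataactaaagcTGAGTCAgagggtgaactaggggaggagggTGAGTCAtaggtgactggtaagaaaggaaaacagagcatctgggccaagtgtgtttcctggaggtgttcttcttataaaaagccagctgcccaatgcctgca
Of the 23 genes that passed, 16 have an entry in the RefSeq table, and 2 of these, Nts and Lipn, hold TGANTCA on either strand in the 250 bases before the start, against 7.82% of 27025 genes. The injury effectors Gpr151, Tubb6, Mmp16 and Star have no entry and were not searched. A match of these letters is a description of the sequence and says nothing of binding.

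Lipn (ENSMUSG00000024770), a lipase, is expressed at low levels in these ganglia, at 0.563, 0.451 and 0.551 CPM at recovery and at 2.08, 4.24 and 2.94 CPM at peak. It fell by 2.56 ± 0.32 (edgeR adjusted p = 0.0286) and was still 2.71 ± 0.53 above no disease (edgeR adjusted p = 0.0313).

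Voltage-gated calcium channel genes had mostly negative values. Of 17 tested, 1 was lower, 0 were higher, and 16 had a negative log2 fold change, with a median of -0.34, beside 0.02 over all genes tested. Cacna2d1 (ENSMUSG00000040118, chromosome 5, 15934691 to 16374511), the alpha2delta-1 subunit that brings channels to the membrane and binds gabapentin, was at 544, 445 and 422 CPM at recovery and at 719, 875 and 740 CPM at peak. All recovery libraries lie below all peak libraries, and recovery replicate 1 is the highest of its group. Cacna2d1 fell by 0.73 ± 0.11 on the log2 scale (edgeR adjusted p = 0.0424), and the level did not differ from no disease by the test (-0.27 ± 0.11, edgeR adjusted p = 0.186). Without recovery replicate 1, 8 of the 17 were lower and the median was -0.63. The summed level of the list was 1559 CPM in that library, against 1144 and 1093 CPM in recovery replicates 2 and 3 and 1661, 2025 and 1602 CPM at peak. The other channel lists depended on the same library. Of 33 potassium and 13 sodium channel genes 0 were called by edgeR, DESeq2 or limma-voom, with 2 potassium channel genes higher and 4 lower, and 1 sodium channel gene higher and 3 lower, at an unadjusted p below 0.05. Over all genes 7.03% were higher and 7.37% lower at that p. Without recovery replicate 1 edgeR called 13 potassium channel genes lower and 1 higher, and 5 sodium channel genes lower. This was not particular to channels. Without that library 9 of 19 neurofilament and cytoskeleton genes were lower and 1 was higher. Of 22 synaptic vesicle genes 6 were lower, and of 15 pan-neuronal genes 4, beside 7.05% of all genes. Of 18 neuron identity factors 1 was lower. Scn10a, the sodium channel of nociceptors, was at 819, 510 and 547 CPM at recovery and at 708, 847 and 609 CPM at peak, and its groups overlap (-0.21 ± 0.18, edgeR adjusted p = 0.608, and -0.46 with adjusted p = 0.0415 without recovery replicate 1).

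Transcripts that define the classes of sensory neuron gave few calls. Of 13 genes of peptidergic neurons 1 was lower: Adcyap1 (ENSMUSG00000024256), the neuropeptide PACAP, at 109, 106 and 101 CPM at recovery and 158, 200 and 160 CPM at peak (-0.71 ± 0.10, edgeR adjusted p = 0.0403). PACAP is also known to rise in injured neurons, and the difference of Adcyap1 at recovery from no disease did not pass (-0.13 ± 0.10, edgeR adjusted p = 0.462), although all recovery libraries lie below all no disease libraries, which held 109.5 to 126 CPM. Calca, which encodes the peptide CGRP, averaged 995 ± 49.2 CPM at recovery and 969 ± 107 CPM at peak (0.04 ± 0.10, edgeR adjusted p = 0.88). Of 19 genes of low-threshold mechanoreceptors and proprioceptors 0 were called by edgeR or limma-voom and 2 were higher by DESeq2, with 3 higher and 3 lower at an unadjusted p below 0.05. Pvalb, the calcium buffer of proprioceptors, was at 45.3, 36.8 and 35.3 CPM at recovery and at 23.4, 13.02 and 16.3 CPM at peak. Its groups do not overlap, but the difference, 1.15 ± 0.24, missed the threshold (edgeR adjusted p = 0.101, and 0.000641 with DESeq2). In the same edgeR fit the log2 fold change of Pvalb against no disease was -0.47 ± 0.23 at recovery (adjusted p = 0.261) and -1.62 ± 0.24 at peak (adjusted p = 0.00586).

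Antigen presentation was the 1 list described here with members that rose. Of 19 members tested 2 were higher and 0 lower, 11 were higher at unadjusted p under 0.05, 7 by DESeq2 and 0 by limma-voom, and the median was 0.51. H2-Eb1 (ENSMUSG00000060586, chromosome 17, 34305867 to 34316674), a class II beta chain, was at 40.5, 74.1 and 74.5 CPM at recovery and at 27.8, 22.2 and 23.9 CPM at peak (1.36 ± 0.20, edgeR adjusted p = 0.0403). H2-Ab1 (ENSMUSG00000073421, chromosome 17, 34257689 to 34269419), the beta chain of the other class II pair, was at 28.8, 52.8 and 52.8 CPM at recovery and at 18.01, 17.6 and 17.997 CPM at peak (1.33 ± 0.20, edgeR adjusted p = 0.0403). In both genes recovery replicate 1 is the lowest recovery library, yet it lies above every peak library. Their partners missed the threshold at almost the same size of change: the alpha chain H2-Aa at 1.30 ± 0.21 (edgeR adjusted p = 0.0583) and Cd74, the invariant chain that escorts class II molecules, at 1.21 ± 0.20 (edgeR adjusted p = 0.0667). Against no disease, all 4 were higher at recovery, by 0.94 for H2-Eb1 and H2-Ab1, 1.04 for H2-Aa and 0.93 for Cd74 (edgeR adjusted p = 0.0313 to 0.0377), and none of them passed at peak, where their log2 fold changes were -0.42 to -0.26. Without recovery replicate 1, 11 members of the list were higher, and H2-Eb1 stood at 1.58 and H2-Ab1 at 1.55.

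Class II promoters are shown because letters known from such promoters are well described. These are the Y box CTGATTGG, bound by the factor NF-Y, and the X2 element, a site of the cAMP response type (TGACGTCA). For H2-Eb1 (chr17:34305617-34305866, plus strand) the Y box begins 62 bases before the RefSeq start. For H2-Aa (chr17:34287824-34288073, minus strand) TGACGTCA begins 74 and the Y box 51 bases before it.
H2-Eb1: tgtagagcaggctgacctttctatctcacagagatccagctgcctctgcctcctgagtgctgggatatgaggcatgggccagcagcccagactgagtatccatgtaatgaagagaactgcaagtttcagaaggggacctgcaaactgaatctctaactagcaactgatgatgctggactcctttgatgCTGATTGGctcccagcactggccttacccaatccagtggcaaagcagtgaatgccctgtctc
H2-Aa: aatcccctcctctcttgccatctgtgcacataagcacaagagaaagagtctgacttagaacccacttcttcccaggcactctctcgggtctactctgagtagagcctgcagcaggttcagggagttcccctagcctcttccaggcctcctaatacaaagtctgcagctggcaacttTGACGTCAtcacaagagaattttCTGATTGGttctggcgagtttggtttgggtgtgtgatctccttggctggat
Capitals mark the matches, and the sequences are those of RefSeq on GRCm38.p6. The Y box letters stand on either strand in the 250 bases before the start of 4.43% of 27025 genes and TGACGTCA in 1.77%. Of the 16 genes that passed and have an entry, H2-Eb1 was the 1 with the Y box, and 0 held TGACGTCA. H2-Ab1 has no entry and was not searched, and H2-Aa is not among the genes that passed.

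No macrophage gene passed with all libraries. Of 25 tested 0 were called by edgeR or limma-voom and 2 were lower by DESeq2, with 1 higher and 3 lower at an unadjusted p below 0.05, and the median was -0.07. Without recovery replicate 1 edgeR called 3 higher and 2 lower, with a median of 0.12, beside 3.47% and 7.05% of all genes. The summed level of the list was 392, 807 and 790 CPM at recovery and 838, 579 and 918 CPM at peak, so recovery replicate 1 is the lowest of the 6 libraries. Trem2, a lipid-sensing receptor, was at 3.17, 4.15 and 4.57 CPM at recovery and at 7.50, 8.41 and 9.84 CPM at peak (-1.11 ± 0.20, edgeR adjusted p = 0.0795). Gpnmb, a glycoprotein of lipid-laden macrophages, averaged 16.3 ± 4.21 CPM at recovery and 39.3 ± 12.8 CPM at peak (-1.26 ± 0.24, edgeR adjusted p = 0.0795). Trem2 remained 1.66 ± 0.23 above no disease at recovery (edgeR adjusted p = 0.0140). Genes of lipid handling and lysosomes included 2 that passed, both lower, of 23 tested, with a list median of -0.09. Abca1 (ENSMUSG00000015243), which exports cholesterol, was at 280, 224 and 235 CPM at recovery and at 368, 419 and 402 CPM at peak (-0.69 ± 0.10). Plin2 (ENSMUSG00000028494), which coats lipid droplets, was at 41.2, 39.0 and 46.0 CPM at recovery and at 59.2, 66.4 and 70.7 CPM at peak (-0.64 ± 0.09, edgeR adjusted p = 0.0403, as for Abca1). Of their peak rise in mean CPM, 1.44% was left for Abca1 and 1.04% for Plin2.

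Among glia, the inward rectifier Kcnj10 (ENSMUSG00000044708, chromosome 1, 172341210 to 172374085), the Kir4.1 channel with which satellite glia take up potassium, was the 1 member called of 12 satellite glia genes. It was at 21.9, 15.9 and 16.3 CPM at recovery and at 40.7, 36.9 and 31.0 CPM at peak (-1.01 ± 0.14, edgeR adjusted p = 0.0403). At recovery it stood at -0.41 ± 0.14 against no disease, which did not pass (edgeR adjusted p = 0.128). Of the 12 genes 9 had a negative log2 fold change and 3 a positive one, and the list median was -0.12. At unadjusted p under 0.05, 4 were lower and 2 higher, beside 7.37% and 7.03% of all genes. Fabp7, a fatty acid binding protein, had the largest rise of the list. It was at 121 ± 20.7 CPM at recovery and 93.2 ± 2.90 CPM at peak (0.38 ± 0.15, edgeR adjusted p = 0.311). No myelin gene passed. Of 24 tested 0 were called by edgeR or limma-voom and 1 was lower by DESeq2, with 2 higher and 2 lower at an unadjusted p below 0.05, and the median was 0.02. Against no disease the median of these genes was 0.82 at recovery and 0.79 at peak. Csrp2 (ENSMUSG00000020186, chromosome 10, 110919789 to 110939622), a LIM domain protein known from smooth muscle and stellate cells, had the lowest adjusted p of all genes. It was at 12.3, 14.4 and 16.6 CPM at recovery and at 38.5, 35.4 and 45.7 CPM at peak (-1.46 ± 0.14, edgeR adjusted p = 0.0187), and with no disease at 11.7 to 15.4 CPM.

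Endothelial genes all had positive values, though none passed. Of 16 endothelial genes 0 were called by edgeR or limma-voom and 4 were higher by DESeq2, with 11 higher and 0 lower at an unadjusted p below 0.05. The median log2 fold change was 0.49, and in 9 genes the recovery libraries all lay above the peak libraries, as in 8.51% of all genes. Cldn5, the tight junction protein of neural vessels, was at 15.7, 18.8 and 23.3 CPM at recovery and at 8.17, 11.5 and 8.23 CPM at peak (1.05 ± 0.19, edgeR adjusted p = 0.0795). Without recovery replicate 1, 9 endothelial genes were higher and the median was 0.55. Matrix and basal lamina genes, which build the sheath around axons and ganglia, had mostly negative values. Of 25 matrix and fibroblast genes 0 were called by edgeR or limma-voom and 5 were lower by DESeq2, with 8 lower and 0 higher at unadjusted p under 0.05 and a median of -0.42. Of 21 basal lamina genes 0 were called by edgeR or limma-voom and 5 were lower by DESeq2, with 9 lower and 0 higher at unadjusted p under 0.05 and a median of -0.28. The median of the matrix list ranged from -0.61 to -0.18 when 1 library was left out. Without recovery replicate 1 edgeR called 5 matrix and fibroblast genes and 5 basal lamina genes lower, and 0 higher in either list. Among the 36 nuclear genes of the respiratory chain 0 were called by edgeR or limma-voom and 1 was higher by DESeq2, with 12 higher and 0 lower at an unadjusted p below 0.05 and a median of 0.18. Without recovery replicate 1 edgeR called 7 of the 36 higher and 0 lower. Each count of this paragraph is to be read beside the share of all genes by the same measure. At an unadjusted p below 0.05, 7.03% of all genes were higher and 7.37% lower. By DESeq2 0.613% were higher and 1.16% lower. By edgeR without recovery replicate 1, 3.47% were higher and 7.05% lower.

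**Figure D3:**
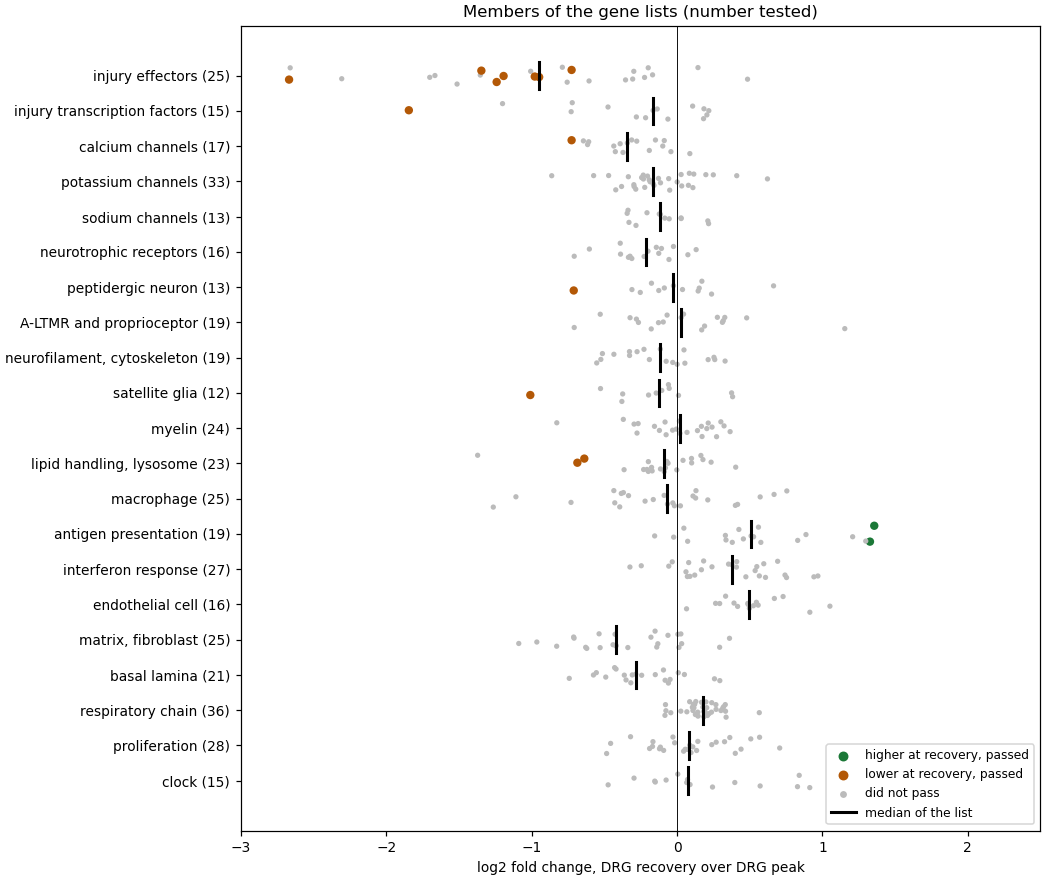
Log2 fold change of DRG recovery over DRG peak for the members of 21 gene lists, with the number tested in brackets, 1 point per gene, a black bar at the list median and colour for members that passed the test. The injury effectors reach the lowest median, -0.95, and antigen presentation the highest, 0.51.

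Other genes that passed belong to no list with a common direction. Lower at recovery were Sema6a (ENSMUSG00000019647), a membrane semaphorin that guides axons, at 24.8, 17.4 and 17.2 CPM at recovery and 40.1, 65.8 and 43.3 CPM at peak (-1.33 ± 0.20), and the protease Pappa2 (ENSMUSG00000073530), which cleaves binding proteins of insulin-like growth factors (-1.10 ± 0.17). Tifa (ENSMUSG00000046688), an adaptor of NF-kappaB signalling, was lower by a log2 fold change of -0.63 ± 0.10, and all 3 genes had an edgeR adjusted p of 0.0424. Adamts17 (ENSMUSG00000058145), a secreted metalloproteinase, was at 3.48, 3.57 and 3.77 CPM at recovery and at 7.43, 7.16 and 6.61 CPM at peak (-0.97 ± 0.14, edgeR adjusted p = 0.0403). It was the 1 gene of the 18 not higher at peak than with no disease (0.23 ± 0.14, edgeR adjusted p = 0.32), and it was lower at recovery than with no disease (-0.74 ± 0.14, edgeR adjusted p = 0.028). Of the other 17, 4 (Atf3, Lipn, Nts and Star) were still higher at recovery than with no disease by the test, as were 2.44% of all genes, and all 17 were higher at peak than with no disease, as were 4.42% of all genes. These comparisons share the DRG peak or recovery libraries with the main one, and so do the percentages of the peak change left. Genes selected as high at peak are therefore apt to be high against no disease too, and the shares of all genes are no like reference.

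Besides class II, 3 genes rose, and all 3 had been lower at peak than with no disease, where 3.21% of all genes were. The 3 genes were selected on the same peak libraries, so that share is no like reference for them. Chchd10 (ENSMUSG00000049422, chromosome 10, 75933130 to 75937747), a protein of the mitochondrial intermembrane space, was at 28.4, 27.1 and 24.4 CPM at recovery and at 16.2, 16.8 and 16.2 CPM at peak (0.70 ± 0.09, edgeR adjusted p = 0.0286). With no disease it was at 32.2 to 35.3 CPM, and 39.5% of the fall at peak was left. Rem2 (ENSMUSG00000022176), a small GTP-binding protein that restrains calcium channels, was at 5.27, 4.72 and 4.79 CPM at recovery and at 1.47, 1.93 and 1.76 CPM at peak (1.51 ± 0.22, edgeR adjusted p = 0.0403), with 51.2% of its fall left. Fam81a (ENSMUSG00000032224) was at 36.2, 34.0 and 32.9 CPM at recovery and at 24.4, 24.9 and 22.2 CPM at peak (0.53 ± 0.08, edgeR adjusted p = 0.0403). Exons of Chchd10 overlap those of Gm867 and Mmp11, and exons of Pappa2 those of 1600012P17Rik, so with the strand setting not given their counts may include reads of these neighbours.

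The libraries did not carry these changes evenly, as the summed level of each list shows. The injury effectors summed to 1430, 1270 and 1298 CPM at recovery and to 1755, 2274 and 2080 CPM at peak, with no overlap and with recovery replicate 1 nearest to peak. Antigen presentation genes summed to 915, 1430 and 1415 CPM at recovery and to 810, 908 and 882 CPM at peak, so recovery replicate 1 lies only just above the peak libraries. Endothelial genes summed to 251, 274 and 304 CPM at recovery and to 201, 185 and 210 CPM at peak. Red blood cell, granulocyte and macrophage genes were at their lowest of the 6 libraries in recovery replicate 1, while the neurofilament and cytoskeleton list was at its highest there, at 26716 CPM, against 15980 and 16477 CPM in recovery replicates 2 and 3 and 20490, 26281 and 21115 CPM at peak. The part of blood and immune cells in the class II rise was not tested. Skeletal muscle genes summed to 4.91, 5.42 and 74.9 CPM at recovery and to 24.2, 18.3 and 5.66 CPM at peak, and Myh4, a muscle myosin, was at 33.1 CPM in recovery replicate 3.

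**Figure D4:**
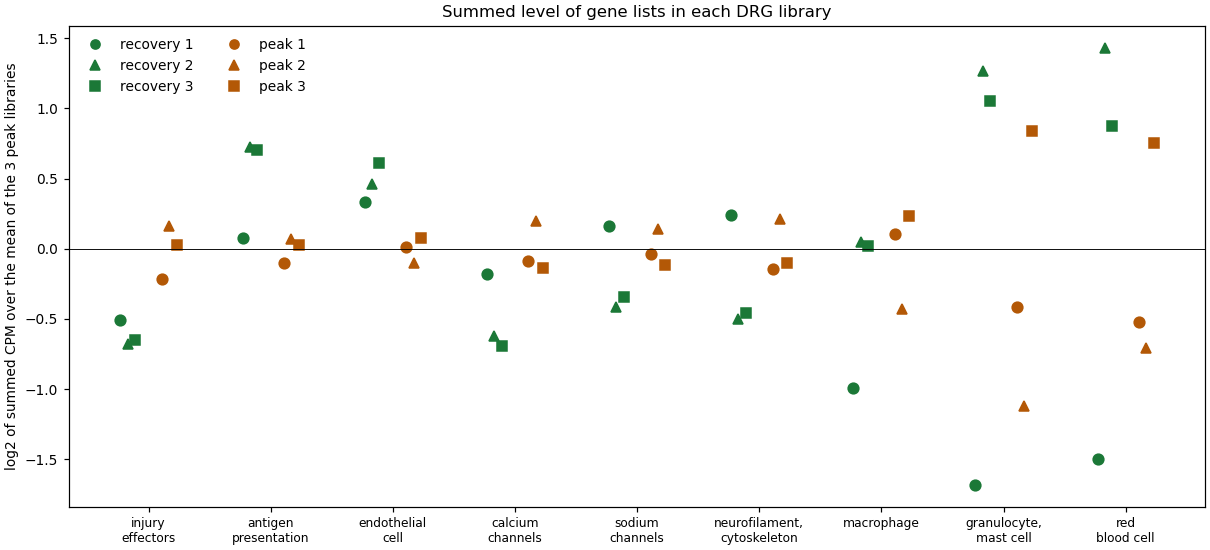
Summed CPM of 9 gene lists in each DRG library, as log2 of the ratio to the mean of the 3 peak libraries, with recovery libraries in green to the left of peak libraries in orange. Recovery replicate 1 (green circles) lies apart from recovery replicates 2 and 3 for most lists, and all 3 recovery libraries lie below the peak libraries for the injury effectors.

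The sciatic nerve, which holds the axons of these neurons and their Schwann cells, was set against DRG for the same step. In nerve 1181 of 16049 genes were higher at recovery than at peak (7.36%) and 1785 lower (11.1%). The difference between the tissues was tested as an interaction over 18 libraries and passed for 1356 of 17289 genes (7.84%). Of the 23 genes that passed in DRG, 20 were tested in nerve, and the difference passed for 9. Atf3 fell further in DRG than in nerve, where its log2 fold change was -0.61 ± 0.18 (difference -1.27 ± 0.32, edgeR adjusted p = 0.0265), and so did Tubb6 (difference -0.81 ± 0.21, edgeR adjusted p = 0.0291) and Flrt3 (difference -0.98 ± 0.24, edgeR adjusted p = 0.0227). Kcnj10 and Csrp2 fell further in nerve. Kcnj10 was at 6.43, 3.995 and 5.55 CPM in nerve at recovery and at 61.3, 47.3 and 56.0 CPM in nerve at peak (difference 2.32 ± 0.26, edgeR adjusted p = 0.000150). For class II no difference between the tissues passed: H2-Eb1 changed by 1.15 ± 0.20 in nerve, and the difference was 0.18 ± 0.31 (edgeR adjusted p = 0.767). Adcyap1 rose in nerve (3.63 ± 1.11, edgeR adjusted p = 0.0473), where it was at 2.83, 0.985 and 0.677 CPM at recovery and at 0.0475, 0.285 and 0.0416 CPM at peak (difference -4.37 ± 1.05, edgeR adjusted p = 0.0218). Nerve recovery replicate 1 is the highest of its group, and without it the difference was -3.53 (edgeR adjusted p = 0.0892). With each of the 12 peak and recovery libraries left out in turn, the difference passed all 12 times for Kcnj10 and Csrp2, 10 times for Adcyap1, 6 for Flrt3, 5 for Atf3 and 4 for Tubb6. The edgeR adjusted p reached 0.0694 for Atf3 and Flrt3 and 0.0791 for Tubb6. Proliferation genes, which had a median of -2.24 in nerve, had a median of 0.08 in DRG, where 0 of 28 were called by edgeR, DESeq2 or limma-voom and 0 higher and 1 lower at unadjusted p under 0.05. Mki67, an antigen of cycling cells, was at 17.9, 50.4 and 39.2 CPM in DRG at recovery and at 38.3, 20.7 and 42.1 CPM in DRG at peak, and the difference from nerve was 2.69 ± 0.45 (edgeR adjusted p = 0.00301).

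**Figure D5:**
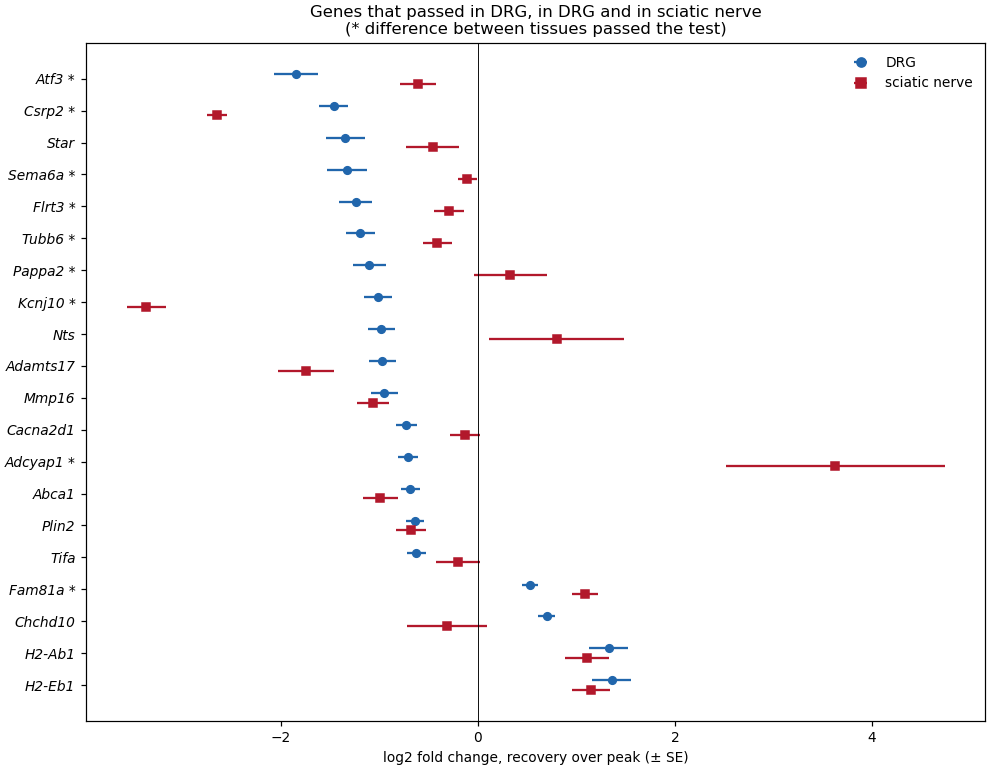
Log2 fold change of recovery over peak (± SE) in DRG (circles) and in sciatic nerve (squares) for the 20 genes that passed in DRG and were tested in nerve, with a star where the difference between tissues passed the test. Atf3, Flrt3 and Tubb6 lie further to the left in DRG, Kcnj10 and Csrp2 further to the left in nerve, and the SE bars of both tissues overlap for H2-Eb1 and H2-Ab1.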

How the data were processed

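RNA of DRG and sciatic nerve was sequenced in bulk after library preparation with a SMARTER mRNA kit, per the labels' protocols. The submitters' processing notes list STAR 2.6.1a, kallisto 0.44.0, Bowtie2 and the builds GRCm38 and mm10, without their roles or a strand setting. The authors deposited raw read counts for 28684 genes as whole numbers. The authors' deposited table of comparisons holds, per the file headers, a log2 ratio and a q-value (adjusted p-value), used to count calls at q under 0.05.

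The counts of the 9 DRG libraries (total counts 14887230 to 22531371) were filtered with filterByExpr, normalised by TMM and tested for recovery minus peak with the quasi-likelihood F test of edgeR 4.0.16 (R 4.3.3), with Benjamini-Hochberg adjustment over all genes tested and a threshold of 0.05. The no disease libraries share the estimate of the spread. SE is the log2 fold change over the root of F. The tissue difference was an interaction over 18 libraries. No 2 libraries had identical counts. On simulated data for this comparison the fit of 16259 genes recovered 40.3%, 91% and 100% of genes changed 1.5-fold, 2-fold and 4-fold. These shares do not carry over to the real libraries. There H2-Aa, changed more than 2-fold, and Sprr1a, changed more than 4-fold, missed the threshold. Alternatives were DESeq2 1.42.0, limma-voom (limma 3.58.1), DESeq2 size factors, no filter, other sets of libraries, a replicate block, ribosomal RNA genes left out and each library left out. Positions come from GENCODE vM21 (GRCm38), where 28578 of the IDs were found.

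Named genes are those past the threshold whose groups do not overlap and whose mean is 5 CPM or more, filled to 12 in each direction by unadjusted p. Besides H2-Aa, Cd74 and Cldn5, the rises filled in this way were Gltscr2, Drap1, Ccdc74a, Col23a1 and Pcsk6. These did not pass (edgeR adjusted p = 0.0522 for Gltscr2 to 0.0795) and are not described above. Up to 4 members past the threshold, or 3 abundant ones, were added for each of 49 lists, and 14 genes by name. Lipn and Rem2, below 5 CPM, and Sox11, Gpnmb, Fabp7, Gfap and the clock genes Ciart, Dbp and Nr1d1 were named after their values were seen. The members and lists were chosen with earlier results of these data known.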

Additional observations from a re-analysis of the deposited data

Results flagged for a closer look

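The results here were picked out because the step from peak to recovery differed between DRG and sciatic nerve by the interaction test. Values are the DRG log2 fold change minus that of nerve, and 7.84% of all genes tested passed. Of the genes that passed in DRG, the difference was -1.27 for Atf3, -0.81 for Tubb6, -0.98 for Flrt3, -1.26 for Sema6a, -1.44 for Pappa2, -4.37 for Adcyap1, -0.59 for Fam81a, 1.15 for Csrp2 and 2.32 for Kcnj10. Of these 9, the difference passed with any 1 of the 12 peak and recovery libraries left out for Sema6a, Csrp2 and Kcnj10.

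Genes of sensory neurons and their channels had DRG log2 fold changes between -0.56 (Cckar) and 0.15 (Tac1), and of the 9 genes given next 8 rose in nerve, where Cckar was not tested. The difference was -6.25 for the sodium channel Scn10a, -5.21 for Scn11a, -5.14 for Scn9a, -5.28 for the substance P gene Tac1, -4.09 for Calca, -4.99 for Tmem233, -4.38 for the cold channel Trpm8, -4.36 for the potassium channel Kcnb2 and -5.34 for the cholecystokinin receptor Cckar. In nerve these genes were at low counts at peak (Tac1 at 0.0475, 0.0570 and 0.0833 CPM), so the size of these fitted differences depends on the prior count. The rise was uneven, with nerve recovery replicate 1 the highest library in each of the 8. Scn10a was at 15.1, 5.64 and 2.53 CPM in nerve at recovery and at 0.0475, 0.285 and 0.0416 CPM in nerve at peak, and Calca was at 25.7, 9.69 and 3.70 CPM in nerve at recovery and at 1.04, 0.742 and 0.4996 CPM in nerve at peak. Without nerve recovery replicate 1 the difference still passed for Scn10a (-5.31), Scn11a (-4.38) and Scn9a (-4.12), at edgeR adjusted p-values of 0.0304 to 0.0444. It did not for Tac1, Calca, Tmem233, Trpm8, Kcnb2 and Cckar, at 0.0739 to 0.102. The channel subunit Kcns1 stood on the other side, at 3.34, and passed in 3 of the 12 analyses with 1 library left out.

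Genes of dividing cells fell in nerve and did not pass in DRG. The difference was 2.69 for Mki67, 2.78 for Top2a, 3.14 for Ccna2, 3.37 for Hist1h1a, 3.13 for Hist1h4b and 3.24 for Hist1h4f. Exons of Ccna2 overlap those of Exosc9, and histone genes have near-identical copies, so their counts are uncertain. The secreted matrix protein Cthrc1 had a difference of 4.31 and the basal lamina proteoglycan Hspg2 of 0.63. The smaller differences were -1.10 for the complement regulator Cd55, -0.99 for the cytokine receptor Lifr, -0.55 for the sodium channel Scn7a and 0.52 for the respiratory chain gene Cox4i1.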

How the results depend on the processing

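The direction of all 23 genes held in each of the 14 alternatives, but the counts of genes that passed did not. Higher and lower genes numbered 5 and 18 in the reported analysis, 5 and 18 with DESeq2 size factors, 4 and 15 in 1 fit of 18 libraries, and 6 and 18 without ribosomal RNA genes. They numbered 46 and 92 with no filter on low counts, 101 and 191 with DESeq2, 1 and 11 with limma-voom, and 0 and 0 with the 6 libraries of the comparison only (786 higher and 905 lower at an unadjusted p below 0.05). All 23 genes passed with DESeq2 size factors, no filter, DESeq2 and without ribosomal RNA genes. Of the 23, however, 12 passed in the fit of 18 libraries, 12 with limma-voom and 2 with the replicate block. Leaving out 1 library gave 0 to 579 higher and 0 to 1175 lower genes, the highest without recovery replicate 1 and the lowest without recovery replicate 2. With the replicate number as a block the counts were 0 and 4, with 1076 higher and 1245 lower at an unadjusted p below 0.05, but the numbers do not pair the samples: the deviations of same-numbered recovery and peak libraries correlated at -0.14, -0.33 and 0.23, and the labels give no shared animal. For the difference between tissues, 1356 genes passed in the reported analysis, 2049 with DESeq2, 1207 with the replicate block and 496 to 2498 with 1 library left out. The cause of these shifts was not tested. On the simulated data 40.3% of genes changed 1.5-fold were recovered, a share that does not carry over to the real libraries. In the real data, with 3 libraries a group, some larger changes, such as that of Sprr1a, missed the threshold.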

Other observations

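Clock genes went both ways. Of 15 clock genes 0 were called by edgeR or limma-voom and 4 were higher by DESeq2, with 6 higher and 0 lower at an unadjusted p below 0.05. Of all genes 7.03% were higher and 7.37% lower at that p. The log2 fold change was positive in 10 and negative in 5, with a median of 0.07, and Clock itself stood at -0.15 (edgeR adjusted p = 0.421). Without recovery replicate 1 edgeR called 4 of the 15 higher and 0 lower, beside 3.47% and 7.05% of all genes. Dbp, a transcription factor with a daily rhythm, was at 22.7, 31.6 and 33.0 CPM at recovery and at 11.4, 18.9 and 18.6 CPM at peak (0.84 ± 0.20, edgeR adjusted p = 0.143). The repressors Nr1d1 (0.91 ± 0.22) and Nr1d2 (0.40 ± 0.09) and the regulator Ciart (0.83 ± 0.20) were positive as well, with edgeR adjusted p-values of 0.148, 0.103 and 0.131. The labels give no hour of collection, and its part was not tested.

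Mobp and Gfap were high in peak replicate 1. Mobp, a myelin protein of oligodendrocytes, was at 1.28, 1.23 and 1.78 CPM at recovery and at 50.3, 8.596 and 4.26 CPM at peak, and Gfap, a filament of astrocytes and of Schwann cells that do not myelinate, was at 1.89, 2.18 and 3.26 CPM at recovery and at 43.3, 7.29 and 6.32 CPM at peak. Neither passed (edgeR adjusted p = 0.108 for Mobp and 0.131 for Gfap). Olig2, a factor that defines oligodendrocytes, had 0 counts in each recovery library and 1, 0 and 0 counts at peak. The other central nervous system markers fixed beforehand were not alike. Mog had 3, 3 and 3 counts at recovery and 15, 8 and 2 at peak. Aqp4 had 294, 363 and 301 counts at recovery and 438, 255 and 171 at peak, so both were highest in peak replicate 1. Chat had 4, 2 and 2 counts at recovery and 2, 5 and 1 at peak, and Slc18a3 had 0, 0 and 0 and 0, 1 and 0. The source of these reads was not tested. Of 9 central nervous system genes 4 were tested, and the summed level of the list was 298, 270 and 270 CPM at recovery and 373, 317 and 290 CPM at peak.

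Interferon response genes were not called with all libraries. Of 27 tested 0 passed by edgeR or limma-voom and 1 was higher by DESeq2, as were 0.613% of all genes. At an unadjusted p below 0.05, 4 were higher and 0 lower, beside 7.03% and 7.37% of all genes. The median was 0.38 and ranged from 0.06 to 0.60 with 1 library left out. Without recovery replicate 1 edgeR called 5 higher and 0 lower, with a median of 0.58, beside 3.47% and 7.05% of all genes.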
